A study of Rattus norvegicus with 4 samples.

Results

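Peptidyl-prolyl isomerases of the endoplasmic reticulum (ER) were examined in neonatal rat cardiomyocytes that overexpressed atrogin-1, a muscle ubiquitin ligase. The genes were taken by name, with no measured value in the rule, but earlier results of these data were known when they were chosen. Fkbp2, Fkbp9, Fkbp10, Fkbp11, Fkbp14 and Ppib encode isomerases of the ER, and Fkbp1a, Fkbp4, Fkbp5 and Ppia served as a cytosolic comparison. Every probe set paired with 1 of these genes and no other was used, which gave 14 of the 31042 probe sets on the array for 9 of the 10 genes, out of 14217 genes in all. The gene without values is Ppia, whose name occurs only on a probe set that 2 other genes share. Of the 6 ER genes, Fkbp11, Fkbp2 and Ppib rose at least 2-fold in the cells given atrogin-1, Fkbp14, Fkbp9 and Fkbp10 did not pass the test, and neither did any of the 3 cytosolic genes measured.

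Cardiomyocytes from the ventricles of neonatal Sprague-Dawley rats, aged 1 to 2 days, were infected with Ad-GFP, an adenovirus that carries the green fluorescent protein GFP alone, or with Ad-atrogin-1-GFP, which carries atrogin-1 and GFP and is called Ad-atrogin-1 here. Both groups were plated with serum, then kept in serum-free medium with virus, and RNA was taken after 24 hours. Each group has 2 arrays, which the labels call biological replicates. How many rats gave the cells of each array was not given in the sources used here, so the p-values measure the spread between these arrays.

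Bonds before a proline can take 2 shapes, cis and trans, and switching between them can slow the folding of a protein. Peptidyl-prolyl isomerases speed this switch. FKBPs, the targets of the drug FK506, and cyclophilins, the targets of cyclosporin A, are the main families, and together they are called immunophilins. Those inside the ER work on secreted and membrane proteins, among them collagen with its many prolines, beside the chaperones BiP and GRP94 and the disulfide isomerases. In the cytosol, the small FKBP12 binds ryanodine receptors, the calcium release channels of heart muscle, while larger FKBPs are cochaperones of Hsp90 that ride on steroid receptors.

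To show what lies in front of the genes that rose, the promoter windows of Fkbp2, Fkbp11 and Ppib are printed from the RefSeq table of rat promoters (build GRCr8), which covers 250 bases before the listed start site and 50 from it on. Hspa5, the gene of BiP, is printed beside them because its window holds a whole ER stress element. All are written 5′ to 3′ on the strand of the gene. Capitals mark CCAAT, the box bound by the factor NF-Y, and CCACG, the other end of the ER stress element, on either strand, so that ATTGG and CGTGG are capitals too. Fkbp2 lies at chr1:213599557-213599856 (minus strand), Fkbp11 at chr7:131754212-131754511 (minus), Ppib at chr8:75498716-75499015 (plus) and Hspa5 at chr3:38452766-38453065 (plus). The Fkbp11 window is placed around a start site that lies inside the full span of that gene in RefSeq. It may therefore not cover the bases in front of that span.
Fkbp2: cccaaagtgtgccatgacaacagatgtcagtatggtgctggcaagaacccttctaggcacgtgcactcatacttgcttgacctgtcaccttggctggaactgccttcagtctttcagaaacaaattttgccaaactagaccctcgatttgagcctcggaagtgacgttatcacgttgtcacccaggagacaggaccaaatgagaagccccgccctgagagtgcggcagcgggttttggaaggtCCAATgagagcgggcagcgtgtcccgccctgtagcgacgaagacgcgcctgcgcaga
Fkbp11: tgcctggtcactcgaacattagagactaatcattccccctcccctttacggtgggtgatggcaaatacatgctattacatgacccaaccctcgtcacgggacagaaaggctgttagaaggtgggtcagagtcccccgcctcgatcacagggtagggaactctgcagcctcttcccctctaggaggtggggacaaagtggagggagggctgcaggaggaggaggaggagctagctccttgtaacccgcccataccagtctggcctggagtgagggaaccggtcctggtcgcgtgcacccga
Ppib: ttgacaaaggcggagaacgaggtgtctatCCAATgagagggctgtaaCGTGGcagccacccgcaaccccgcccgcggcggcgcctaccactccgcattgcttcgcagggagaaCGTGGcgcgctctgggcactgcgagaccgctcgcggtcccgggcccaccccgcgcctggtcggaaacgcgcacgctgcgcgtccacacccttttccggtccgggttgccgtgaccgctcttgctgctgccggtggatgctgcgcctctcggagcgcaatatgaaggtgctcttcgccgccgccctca
Hspa5: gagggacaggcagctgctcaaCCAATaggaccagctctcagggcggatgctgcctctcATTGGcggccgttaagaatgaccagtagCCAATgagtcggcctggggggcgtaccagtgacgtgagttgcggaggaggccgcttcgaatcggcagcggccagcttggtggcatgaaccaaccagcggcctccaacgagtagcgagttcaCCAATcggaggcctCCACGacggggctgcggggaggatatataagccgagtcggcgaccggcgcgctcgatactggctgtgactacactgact

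The whole ER stress element, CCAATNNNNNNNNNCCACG, was not found in the windows of the 5 ER isomerase genes that the table holds, nor in those of the 4 cytosolic ones. The gene without a window is Fkbp10. It was present in 22 of all 33469 windows (0.0657%), and among 10 genes of ER folding proteins with a window it was present in those of Hspa5, Hsp90b1, Calr and Canx. Matches on both strands were searched, and the element contains both of the shorter motifs. For each named gene only the first listed window was searched. The shares count all 33469 windows, which belong to 27457 gene symbols, so a gene can have further windows that were not searched. Among the ER genes, CCAAT stood in the windows of Fkbp2, Ppib and Fkbp14, against 37.5% of all windows. CCACG stood in those of Ppib and Fkbp14, against 31.6%. Of the 4 cytosolic genes, Fkbp4 and Fkbp5 held CCAAT and Fkbp1a held CCACG. Among 7 windows of other FKBP genes, 7 held CCACG and 1 held CCAAT. Among 14 windows of other cyclophilin genes, 6 held CCACG and 7 held CCAAT. In Fkbp2 the CCAAT box lies 7 to 3 bases before the listed start site. In Ppib it lies 221 to 217 bases before it, and the CCACG matches, both on the opposite strand, begin 203 and 137 bases before it. The Fkbp11 and Fkbp9 windows hold neither motif. The element TGACGTG of the unfolded protein response (UPR), found in 1.81% of all windows, was in no window of the ER or cytosolic isomerases. Of the other FKBP genes, Fkbp1b and Fkbp6 held it. Of the 10 genes of ER folding proteins, Hspa5, Hyou1 and Erp29 held it, as did Klf9 and Klf15 among genes induced by glucocorticoids. Among the isomerases, GAANNTTC, a pair of heat shock units that reads the same on both strands, was in the windows of Fkbp14 and Fkbp4, against 8.59% of all. A match is a run of letters, not a shown binding site, and a missing match speaks only for these 300 bases.

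**Figure D1:**
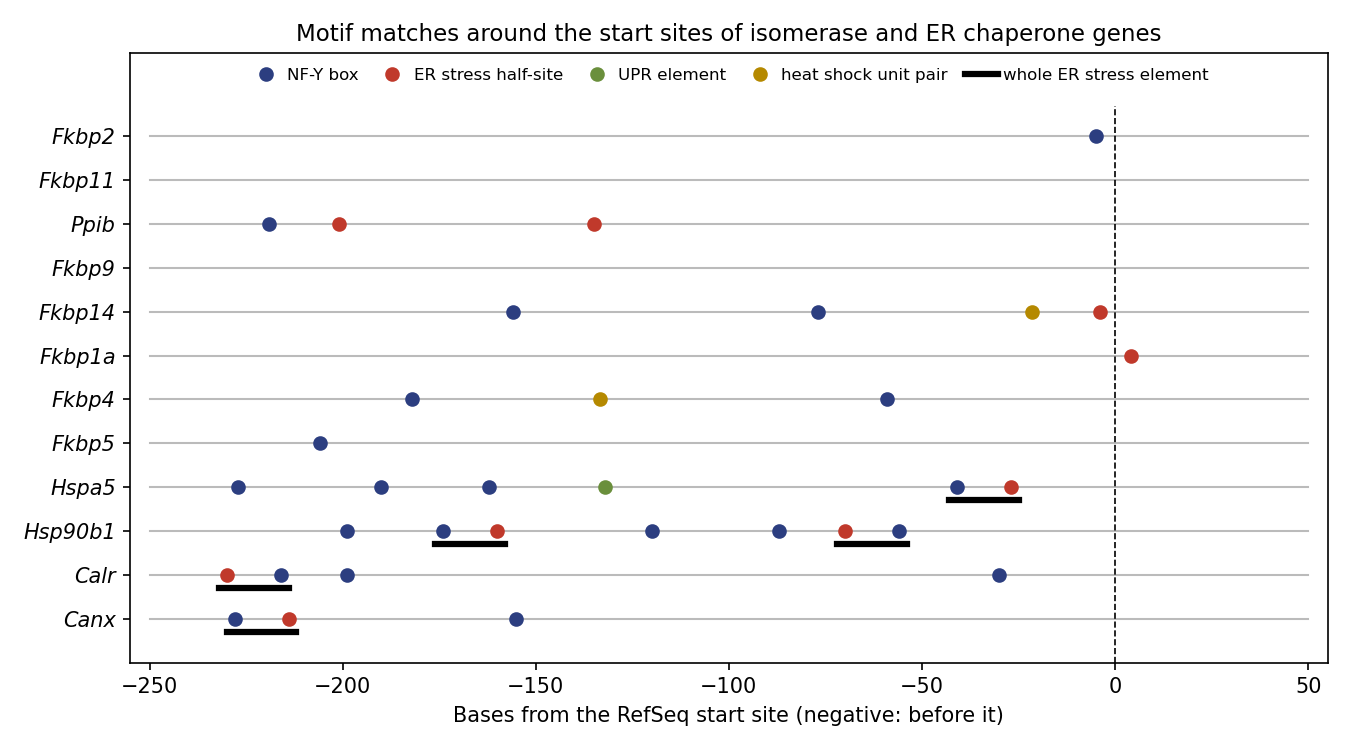
Matches of 5 motifs in the promoter windows of 8 isomerase genes and 4 ER chaperone genes, by distance from the RefSeq start site in bases (horizontal axis), with black bars for whole ER stress elements. Black bars occur in Hspa5, Hsp90b1, Calr and Canx and in none of the isomerase windows.

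The values are log2 signals made by robust multi-array average (RMA), 1 per probe set and array. A linear model was fitted to all probe sets in limma, which steadies each variance with those of the rest, with Benjamini-Hochberg adjustment over the 14217 genes, each represented by its brightest probe set. A gene is said to rise or fall when it differs 2-fold or more with an adjusted p under 0.05. As a check of the virus, Fbxo32, the gene of atrogin-1, was 331-fold higher with Ad-atrogin-1, in a measure that cannot separate viral RNA from the cells' own. The array medians lay between 5.51 and 5.52, the lower quartiles between 3.88 and 3.94, and all 14 isomerase probe sets lay above the quartiles. The 3′ signal of beta-actin exceeded its 5′ signal by 1.19 and 1.22 on the Ad-GFP arrays and by 1.15 and 1.12 on the Ad-atrogin-1 arrays (log2), a sign of RNA quality whose part in the results was not tested. In all, 65 genes (0.457%) rose and 8 (0.0563%) fell, together 0.513%.

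Of the 6 ER isomerase genes, 3 rose and none fell, where 0.457% of all genes rose and 0.823% were at least 2-fold higher with no test. Their median log2 fold change was 0.76, against -0.0028 over all genes. Both Ad-atrogin-1 arrays lay above both Ad-GFP arrays for 5 of the 6 genes, and below them for Fkbp10, whereas 20.7% of all genes lay above and 22.3% below in this way, together 43%. Of the 3 cytosolic genes, none rose or fell by limma, where 0.513% of all genes did. Limma gave 1 of them an unadjusted p under 0.05, against 13.4% of all genes. An equal-variance test with unadjusted p and 2-fold called none of the 3 either. Their median was -0.07. For the ER genes the equal-variance test called 3 of 6 with unadjusted p and 2-fold, where it called 117 of all 14217 genes. After adjustment it called 0 of 6, and 0 genes of all. The difference between the ER and the cytosolic genes was not itself tested. Because the genes were chosen with earlier results of these data known, the share that rose is not that of an unbiased choice.

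**Figure D2:**
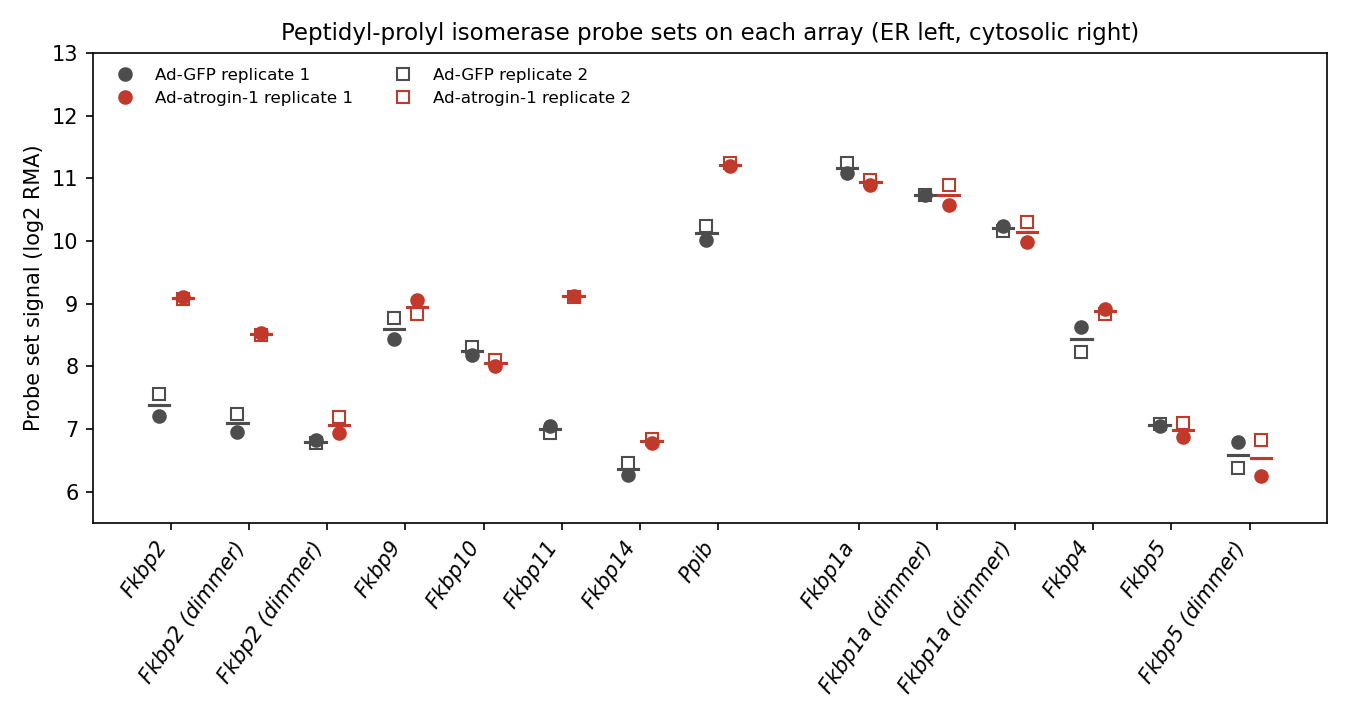
Log2 RMA signal of each of the 14 probe sets (vertical axis) on the 2 Ad-GFP arrays (grey) and the 2 Ad-atrogin-1 arrays (red), with lines at the group means; dimmer probe sets of a gene follow its brightest. Wide gaps between grey and red appear for Fkbp11, for Ppib and for the upper 2 probe sets of Fkbp2, and the other probe sets lie close together or overlap.

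Fkbp11 encodes an FKBP that is anchored in the ER membrane and is abundant in secretory cells. Its log2 signals were 7.06 and 6.94 on the Ad-GFP arrays and 9.13 and 9.11 on the Ad-atrogin-1 arrays. The groups were 2.06 apart at their nearest arrays, while the arrays within a group differed little (SD 0.08 and 0.01, n = 2 each). The gene rose 4.35-fold (log2 fold change 2.12, standard error 0.12, limma adjusted p = 0.00663), with a 95% interval of 3.56- to 5.32-fold. By size of increase it stood at place 18 among the 14217 genes.

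Fkbp2 encodes FKBP13, a small soluble FKBP of the ER, and its 3 probe sets did not move alike. The brightest, which represents the gene, had log2 signals of 7.21 and 7.55 with Ad-GFP and 9.11 and 9.08 with Ad-atrogin-1. It rose 3.28-fold (log2 fold change 1.72, standard error 0.15, limma adjusted p = 0.0249), place 29 of all genes, and its 95% interval ran from 2.53- to 4.27-fold. A dimmer probe set had 6.96 and 7.24 against 8.54 and 8.50, and it rose 2.68-fold (log2 fold change 1.42, standard error 0.14, limma adjusted p = 0.0373 over all probe sets). Both of these probe sets therefore show a clear gap between the groups. The dimmest had 6.82 and 6.78 against 6.94 and 7.20, which is 1.21-fold higher with a 95% interval of 0.954- to 1.52-fold, and it did not pass (adjusted p = 0.548). By their name suffixes the brightest and the dimmest probe set can both bind more than 1 transcript, while the middle one carries no such suffix. RefSeq lists another gene, Fkbp2l1, at the same place in the rat genome, and which of these genes each probe set matches was not tested. The signal of Fkbp2 therefore cannot be told apart here from that of Fkbp2l1.

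Ppib encodes cyclophilin B, the main cyclophilin of the ER, which acts on collagen in a complex with prolyl 3-hydroxylase. Its single probe set had log2 signals of 10.02 and 10.24 on the Ad-GFP arrays and 11.20 and 11.25 on the Ad-atrogin-1 arrays. The 2 groups did not overlap. The rise of 2.12-fold (log2 fold change 1.09, standard error 0.13, limma adjusted p = 0.0451) just passed both thresholds, and its 95% interval of 0.76 to 1.41 on the log2 scale includes changes below 2-fold. Adjusted over all 31042 probe sets instead of over genes, Ppib did not pass (adjusted p = 0.0593). At that level the upper 2 probe sets of Fkbp2 and the Fkbp11 probe set passed, 3 of 14, where 0.248% of all probe sets rose.

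Fkbp14, whose loss in people causes a connective tissue disorder, had log2 signals of 6.27 and 6.46 with Ad-GFP and 6.77 and 6.84 with Ad-atrogin-1. It was 1.36-fold higher (95% interval 1.09 to 1.68) and did not pass (limma adjusted p = 0.240). Fkbp9, an ER FKBP with several isomerase domains, had 8.43 and 8.77 against 9.06 and 8.84. Its groups were 0.08 apart at the nearest arrays, less than the spread within either group, and its ratio was 1.28-fold (95% interval 0.965 to 1.69, adjusted p = 0.439). Fkbp10, a collagen chaperone of the ER that is mutated in brittle bone disease, was the 1 ER gene with lower signals under atrogin-1. It had 8.18 and 8.31 with Ad-GFP against 8.01 and 8.11 with Ad-atrogin-1, a log2 fold change of -0.18 (95% interval -0.49 to 0.12, adjusted p = 0.591).

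The upper ends of the intervals of Fkbp9, Fkbp14 and Fkbp10 were 1.69-, 1.68- and 1.09-fold, so that a change of 2-fold lay outside all 3. The lower ends for Fkbp11 and Fkbp2 were 3.56- and 2.53-fold, above these upper ends. For Ppib the lower end almost touched the upper end of Fkbp9, both at 0.76 on the log2 scale. The ER isomerase genes thus covered changes from -0.18 to 2.12 on the log2 scale, and no test of the difference between single genes was made.

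Fkbp1a encodes FKBP12, the cytosolic partner of the ryanodine receptor. Its brightest probe set had log2 signals of 11.08 and 11.25 with Ad-GFP and 10.89 and 10.98 with Ad-atrogin-1, a log2 fold change of -0.23 (standard error 0.12, limma adjusted p = 0.503). In its other probe sets the groups overlapped, and their log2 fold changes were 0.0017 and -0.06. Fkbp4, the gene of the Hsp90 cochaperone FKBP52, had 8.64 and 8.23 against 8.92 and 8.84. Both Ad-atrogin-1 arrays lay above both Ad-GFP arrays, by 1.36-fold on average (95% interval 1.02 to 1.81), but its unadjusted p of 0.0386 did not hold after adjustment (limma adjusted p = 0.342). Fkbp5, which encodes the related cochaperone FKBP51 and is a classic glucocorticoid target, had 7.04 and 7.08 against 6.88 and 7.10, and its groups overlapped. Its log2 fold change was -0.07 at this probe set (standard error 0.13, limma adjusted p = 0.866) and -0.05 at a dimmer one. The sign at the brighter one turned to 0.037 without Ad-atrogin-1 replicate 1.

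The other isomerase genes gave a background within the families. Of 7 other FKBP family genes measured, none rose or fell by limma, where 0.513% of all genes did, so none is the usual outcome for so short a list. Of the 7, 2 had an unadjusted p under 0.05 (13.4% of all genes), and the median log2 fold change was 0.18. The brightest of them were Fkbp3, a nuclear FKBP, with 0.28 (standard error 0.13), and Fkbp8, an FKBP of the mitochondrial outer membrane, with 0.11 (0.11). Fkbp7, the ER FKBP among these, and Fkbp1b are named for what they encode, after their values were seen. Fkbp7 had log2 signals of 5.88 and 5.99 with Ad-GFP and 6.58 and 6.52 with Ad-atrogin-1, 1.53-fold higher, without passing (limma adjusted p = 0.109). The groups of Fkbp7 did not overlap. Fkbp1b, whose protein binds the cardiac ryanodine receptor, had 4.41 and 4.44 against 4.43 and 4.79, with overlap.

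Of 14 other cyclophilin genes, none passed in limma either, where 0.513% of all genes did. Of the 14, 6 had an unadjusted p under 0.05 (13.4% of all genes), and the median log2 fold change was 0.11. Ppid, the gene of the Hsp90 cochaperone cyclophilin 40, had 0.38 (standard error 0.15) and Ranbp2, a nuclear pore protein with a cyclophilin domain, had 0.36 (0.15). Ppic, a cyclophilin of the secretory pathway, is named after its values were seen, like Nktr and Ppif. It had log2 signals of 8.74 and 8.74 on the Ad-GFP arrays and 8.76 and 8.80 on the Ad-atrogin-1 arrays, a change of 1.03-fold. Nktr, a large protein with a cyclophilin domain, came nearest to passing, with 7.23 and 7.41 against 8.28 and 8.36, 1.99-fold higher (limma adjusted p = 0.0522). Ppif, the mitochondrial cyclophilin that regulates the permeability transition pore, had groups that overlapped. Neither of the 2 measured genes of the parvulin list, Pin4 and Ptpa, had a change beyond 0.05 on the log2 scale, and limma gave no unadjusted p under 0.05. The equal-variance test with unadjusted p and 2-fold called no gene of these 3 lists, and 117 of all 14217 genes.

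**Figure D3:**
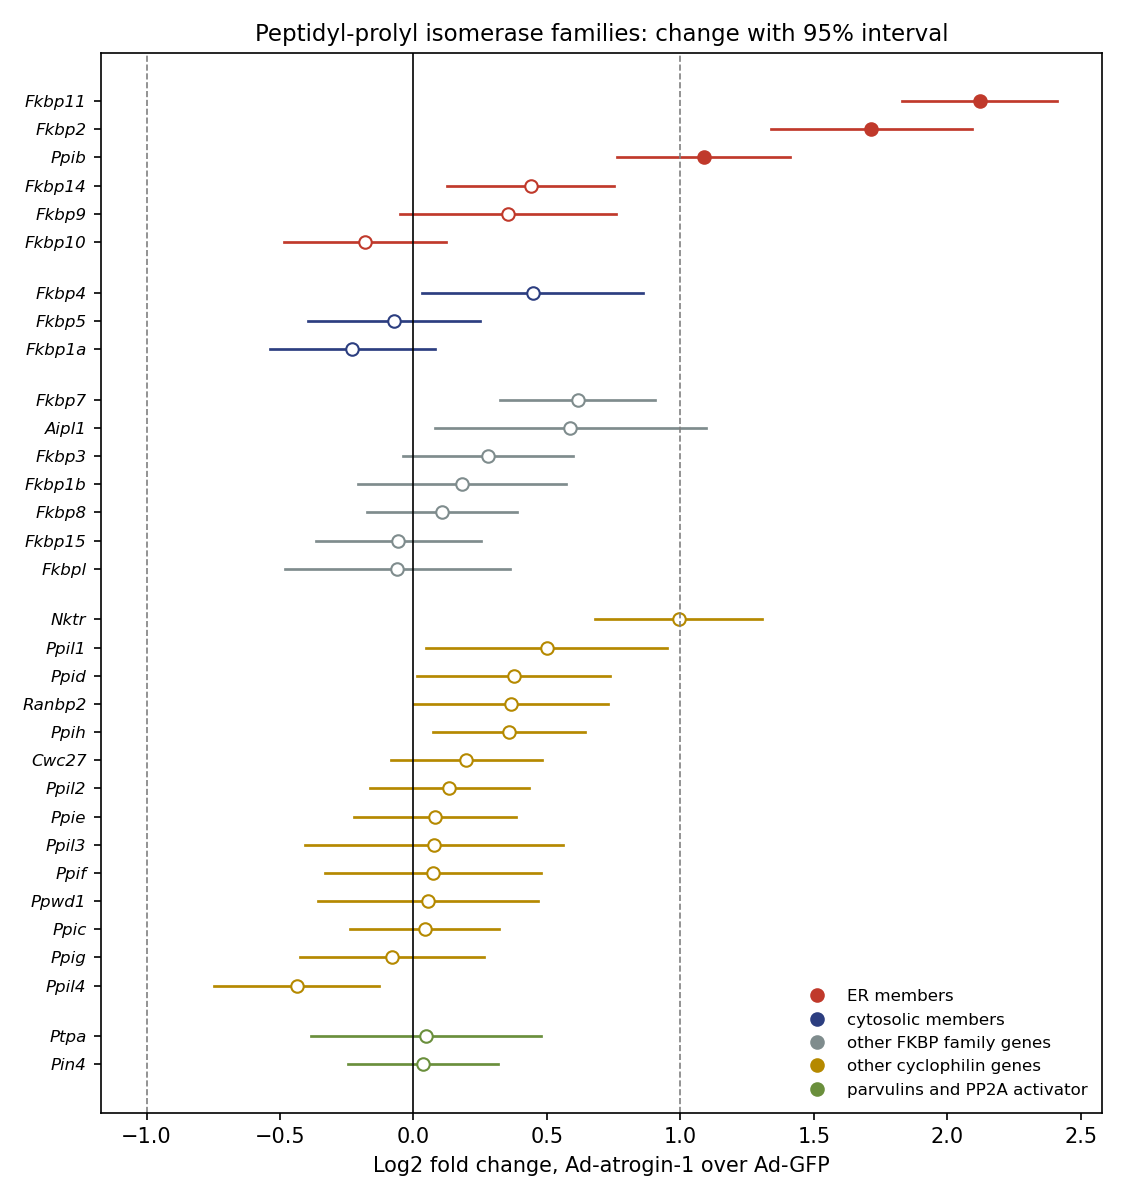
Change with Ad-atrogin-1 relative to Ad-GFP (log2, horizontal axis) for each measured isomerase gene with its 95% interval from limma; filled points passed and dashed lines mark 2-fold. Fkbp11, Fkbp2 and Ppib carry the filled points, and Nktr at 0.99 lies just left of the 2-fold line.

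Cyclophilin B and the ER FKBPs work in the ER with chaperones and disulfide isomerases. Of 12 such folding partners 9 rose, where 0.457% of all genes rose. Their median log2 fold change was 1.75, against -0.0028 over all genes. Sdf2l1, which works with BiP and its cochaperones, had the highest log2 fold change at 3.76 (standard error 0.19), followed by the protein disulfide isomerase Pdia4 at 3.06 (0.16) and the Hsp70-type ER chaperone Hyou1 at 2.46 (0.17). Hspa5, Hsp90b1, Pdia3, Pdia6, Calr and Dnajb11 also rose, by 1.38 to 2.23. The partners that did not pass were the lectin chaperone gene Canx (0.85, limma adjusted p = 0.115), Erp29 (0.88, 0.0673) and Tor1a (0.08, 0.819). The rise of many such partners had been seen in these arrays before the list was drawn up, so their count is no independent support for the isomerases.

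Of 14 genes that modify or chaperone collagen in the ER, none rose or fell by limma, where 0.513% of all genes did. Of the 14, 4 had an unadjusted p under 0.05 (13.4% of all genes), and the median log2 fold change was -0.08. Serpinh1, the gene of the collagen chaperone HSP47, had log2 signals of 11.75 and 11.96 with Ad-GFP and 12.31 and 12.49 with Ad-atrogin-1, 1.46-fold higher (limma adjusted p = 0.201). Sparc, a collagen-binding secreted protein, had a change of -0.12. The partners of cyclophilin B in the prolyl 3-hydroxylase complex were P3h1, at 7.29 and 7.25 against 7.58 and 7.58, and Crtap, at 4.50 and 4.48 against 4.31 and 4.39, both named after their values were seen. P3h1 was 1.24-fold higher and Crtap had a ratio of 0.910, and neither passed (limma adjusted p = 0.329 and 0.679).

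The cytosolic isomerases were set beside the proteins they bind. Over all genes 0.513% passed limma and 13.4% had an unadjusted p under 0.05, so no gene passing is the usual outcome for lists this short. Of 10 Hsp90 cochaperone and steroid receptor genes none passed limma, with 1 at an unadjusted p under 0.05 and a median of 0.03 (log2 fold change). Hsp90ab1, the constitutive Hsp90, had 0.03 (standard error 0.12) and its cochaperone Ptges3 0.03 (0.12). None of 8 genes induced by glucocorticoids passed limma or had an unadjusted p under 0.05, and their median was -0.19, with the transcription factor gene Klf9 at -0.36 (0.25) and the EGF receptor inhibitor gene Errfi1 at -0.26 (0.25). Among 13 partners of FKBP12 and cyclophilin A, again none passed limma, 1 had an unadjusted p under 0.05, and the median was -0.09. Bsg, the cell surface receptor of cyclophilin A, had -0.29 (0.20) and the calcineurin gene Ppp3ca -0.10 (0.17). The equal-variance test with unadjusted p and 2-fold called no gene of these 3 lists or of the collagen list, and 117 of all 14217 genes.

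**Figure D4:**
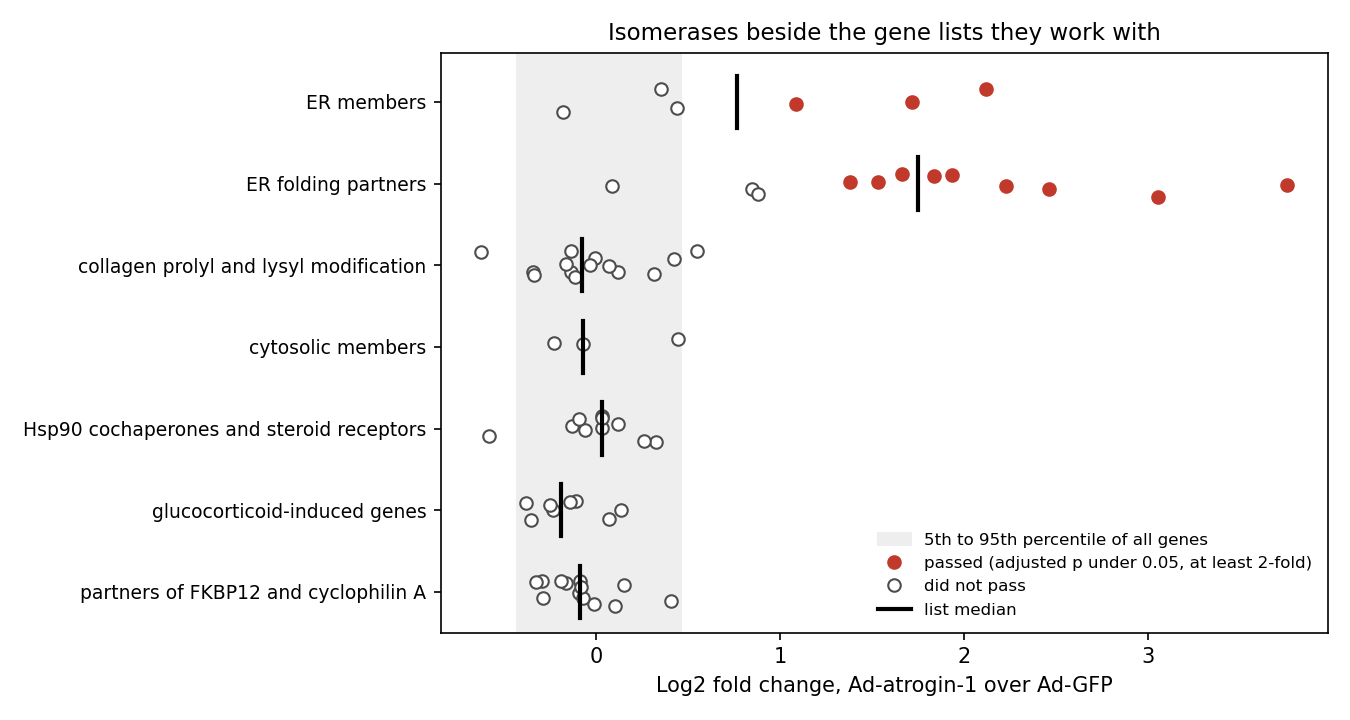
Change with Ad-atrogin-1 relative to Ad-GFP (log2, horizontal axis) of each gene of the ER and cytosolic isomerases and of 5 lists of their partners, with list medians as black lines, genes that passed in red and the 5th to 95th percentile of all genes in grey. Red points occur among the ER isomerases (3 of 6) and their folding partners (9 of 12), and in no other list shown. Over all genes 0.513% passed.

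The genes with the profile most like that of Fkbp11 over the 4 arrays, among 14217 genes less those with a mean under the lower quartile, were Tnfrsf19, a receptor of the tumor necrosis factor family, Bhlha15, a transcription factor of secretory cells, and Isyna1, the enzyme that makes inositol phosphate. Their root mean square differences from Fkbp11, after each gene's mean was taken off, were 0.117, 0.155 and 0.157 on the log2 scale. Bhlha15 had 3.36 and 3.64 on the Ad-GFP arrays, under their lower quartiles, and reached the required mean only through its Ad-atrogin-1 signals. Tnfrsf19 had 4.15 and 3.85 on the Ad-GFP arrays, near the same quartiles. For Ppib the nearest were Rpn1, a subunit of the oligosaccharyltransferase, Arfgap3, a regulator of Golgi transport, and the glutathione synthesis gene Gclc, at 0.0178, 0.0282 and 0.0492. All but Gclc passed, and Gclc, at 1.99-fold, missed both thresholds (limma adjusted p = 0.0570). The log2 fold changes were 2.10 to 2.15 for the 3 genes near Fkbp11 and 0.995 to 1.12 for those near Ppib. These genes were picked for likeness over the same arrays, so similar changes, and the calls that go with them, follow from the choice.

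Cells other than cardiomyocytes can carry ER isomerases, fibroblasts above all, and in such bulk samples fewer cells of a type and less RNA per cell cannot be told apart. Of 9 cardiomyocyte markers measured none passed limma, where 0.513% of all genes passed, with 1 at an unadjusted p under 0.05, against 13.4% of all genes. Their median log2 fold change was 0.33, with 6 above 0 and 3 below. Their summed linear signal was 35245 to 37947 with Ad-GFP and 33632 to 43086 with Ad-atrogin-1, and the troponin gene Tnnt2 and the natriuretic peptide gene Nppa were the brightest, with changes of -0.11 and -0.22 (log2). None of 11 fibroblast markers passed or had an unadjusted p under 0.05, and their summed signal was 10555 to 13768 against 12800 to 13474, with Dcn at -0.30 and Col1a1 at 0.21. The sums of both lists overlapped between the groups. Summed signals were 474 to 656 against 487 to 688 for 6 endothelial markers, 4206 to 4720 against 4711 to 4914 for 6 smooth muscle and pericyte markers, and 336 to 348 against 228 to 504 for 7 leukocyte markers. Among the 6 epithelial and mesothelial markers the sums were 245 to 287 against 399 to 450 and did not overlap, with Krt19 at 3.20 and 5.48 against 7.89 and 8.09 and Krt18 at -0.83 (log2 fold change), while the defining epithelial marker Epcam lay under the lower quartile on every array. No marker gene of these 4 lists passed limma, with 2 smooth muscle, 2 epithelial, 0 endothelial and 0 leukocyte markers at an unadjusted p under 0.05, against 13.4% of all genes. Of the smooth muscle and pericyte list, Rgs5, a pericyte marker named after its values were seen, was 1.97-fold higher without passing (limma adjusted p = 0.102). The part of any of these cells in the isomerase results was not tested.

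With any 1 of the 4 arrays left out, no ER isomerase gene passed limma, in fits where a group of 1 array is assumed to vary like the other group and where 0 to 1 of all 14217 genes passed. These fits could hardly call any gene, so the loss says little of the isomerases. The log2 fold change stayed at 2.06 to 2.18 for Fkbp11, 1.54 to 1.89 for Fkbp2 and 0.98 to 1.20 for Ppib, with limma adjusted p of 0.273 to 0.449.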

How the data were processed

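The deposited log2 signals are robust multi-array average (RMA) values, which the authors computed from the CEL files of Affymetrix Rat Genome arrays in GeneSpring GX. They were used as deposited, without the 57 control probe sets. A platform table and gene identifiers gave 20826 probe sets 1 gene, 436 several and 9780 none. Only the first kind was named, and all entered the model.

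The model (lmFit and eBayes of limma 3.58.1 under R 4.3.3, two-sided, 1 prior variance) was first tested on simulated data. The fit has 2 residual and 3.65 prior degrees of freedom. Standard errors and 95% intervals are those of the moderated fit, and no background level was estimated. The methods name tests of 2 means without detail, so an equal-variance test served as the methods' t-test.

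Named were all the isomerases, Fbxo32, in each list up to 3 genes that passed by size of change, or else the brightest 2, any changed 2-fold, and the nearest profiles. The isomerases and lists were chosen with earlier results of these data known. Figures were drawn with matplotlib 3.10.9. The number of arrays limits the precision. Protein sequences were not used here.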

Additional observations from a re-analysis of the deposited data

How the results depend on the processing

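The processing was varied in scaling (median centring, quantiles), in the filter on dim probe sets, in the prior of limma, in the test and its thresholds, in how probe sets stand for a gene, with a replicate block, and by leaving out each array. Of 153 recomputed changes of the 9 isomerase genes, 134 kept direction and call, 18 lost the call, and 1 reversed: Fkbp5, to 0.037 without Ad-atrogin-1 replicate 1 (range -0.18 to 0.037). All 18 lost calls were those of Fkbp11, Fkbp2 and Ppib, as the other isomerase genes had no call to lose. On all arrays, each of these 3 kept its call in 11 of 13 other settings. Settings that changed only the test or its thresholds leave the fold change as it was. The count of ER isomerase genes that passed was 0 in place of 3, that of their folding partners 0 in place of 9 and that of isomerase probe sets 0 in place of 3 with the adjusted methods' t-test, with the replicate block and with any array left out (0 to 0), and the cause was not tested. Under the block the limma adjusted p was 0.0927 for Fkbp11, 0.144 for Fkbp2 and 0.171 for Ppib. With unadjusted p and 2-fold the methods' t-test again called 3 ER isomerase genes. Over all genes 73 passed, against 0 with the adjusted methods' t-test, 117 with it unadjusted, 165 with unadjusted limma, 172 at 2-fold with no test, 1 with the block and 0 to 1 with an array left out. Averaged over its 3 probe sets, Fkbp2 still passed, and its log2 fold change was 1.14. Same-numbered arrays deviated together weakly (r = 0.0432 over 31042 probe sets). The labels give 1 array of each group the same replicate number, and their sample names share a number in the same way, without saying what it marks.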
